A study of Homo sapiens with 4 samples.

Results

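The nuclear genes for the subunits of oxidative phosphorylation were compared between U118-MG glioma cells that overexpress SPNS2 and cells with a control vector. The members are the 87 of 61806 genes in the count table whose symbols name a subunit of complex I (37 genes, NDUFA, NDUFB, NDUFC, NDUFS, NDUFV and NDUFAB1), complex II (4 genes, SDHA to SDHD), complex III (9 genes, UQCR), complex IV (18 genes, COX4 to COX8 and NDUFA4) or complex V (19 genes, ATP5). They were taken by symbol and by no measured value, though earlier results of these data were known. NDUFA4, named for complex I, was counted with complex IV, where its protein is found. CYC1, a subunit of complex III that the symbol rule does not take, is given apart with cytochrome c.

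U118-MG is an established cell line from a human glioma, kept here in DMEM medium with 10% serum. The SPNS2 group (2 libraries) was infected with lentivirus carrying SPNS2, a membrane transporter that exports sphingosine 1-phosphate, in the pCDH-CMV-MCS-EF1-puro vector. The NC group (2 libraries) was infected with the negative control of that vector, and the labels give the genotype of the line as WT. Expression from the vector is constitutive, and whether infected cells were kept as a pool or as clones is not given in the sources used here. The labels do not tell whether the libraries of a group derive from different cultures, so p-values describe the spread between these libraries, which could be technical. In bulk RNA, fewer cells of a kind and less RNA per cell cannot be told apart.

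Gene counts added up to 31353373 and 34125159 in the SPNS2 libraries and 31513400 and 32992150 in the NC libraries. SPNS2 itself had 7381 and 8224 counts in the SPNS2 libraries, against 42 and 47 in the NC libraries. The subunit genes held 0.637% and 0.641% of all counts in the SPNS2 libraries, against 0.617% and 0.615% in the NC libraries. Of 9 astrocyte and glioma markers, 3 had a mean of at least 1 CPM (counts scaled by TMM to a common library size, written CPM throughout). VIM had 6827 and 6222 CPM in SPNS2, against 4041 and 4744 CPM in NC. CD44 had 366 and 421 CPM in SPNS2, against 335 and 335 CPM in NC. NES went the other way, with 10.1 and 10.9 CPM in SPNS2, against 17.2 and 20.3 CPM in NC. The defining astrocyte markers GFAP, S100B, AQP4 and ALDH1L1 had between 0 and 8 counts in every library, so the glial label rests on the line's name here. Of the other marker lists, the microglia and leukocyte markers summed to 76.2 and 65.9 CPM in SPNS2, against 130 and 111 CPM in NC, nearly all of it CD68, with AIF1 at 0 and PTPRC under 1 CPM. The neuron markers summed to 146 and 152 CPM in SPNS2, against 70.001 and 119 CPM in NC, nearly all of it TUBB3, with RBFOX3 at 0. The part of such differences in the results was not tested.

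Complex I oxidises NADH and complex II oxidises succinate, and both pass electrons to coenzyme Q. Complex III moves them on to cytochrome c and complex IV to oxygen, while complexes I, III and IV pump protons that drive the ATP synthase, complex V. Apart from complex II, whose subunits are all nuclear, each complex joins nuclear subunits with subunits made from mitochondrial DNA. Proliferating glioma cells also use the chain to make building blocks such as aspartate.

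Promoters of respiratory genes are known to bind NRF1 and ETS family factors such as GABP, so the 250 bases before the annotated start were searched in the RefSeq promoter table (GRCh38.p14), where 70 of the 87 genes had 83 windows. The ETS letters CCGGAAGT, read on both strands, stood in 12 of the 83 windows (14.5%), against 3.42% of all 35116 windows and 5.74% of the 16903 windows of tested genes. The NRF1 letters GCATGCGC, the core of its palindromic site, stood in 14 windows (16.9%), against 2.63% of all windows and 4.01% of those of tested genes. CCAAT stood in 33.7% of the subunit windows, against 32% of all windows and 33.2% of those of tested genes. The SP1 letters GGGCGGGG stood in 24.1%, against 21.8% of all windows and 32.6% of those of tested genes. All were read on both strands, and the 4 sets of letters were counted separately. Genes higher in SPNS2 cells and genes not called both held them. Of 15 higher genes with a window, 5 had the NRF1 letters (NDUFS6, NDUFS7, COX6A1, ATP5F1C and ATP5PF) and 4 had the ETS letters (UQCRH, UQCRQ, ATP5PD and, in another of its windows, ATP5PF), while among 50 genes not called 8 had the NRF1 and 8 the ETS letters. Those 8 genes and UQCRC1, which had the smallest adjusted p and none of the 4 motifs, are shown 5′ to 3′ on the gene's strand, with every match to the 4 motifs on either strand in capitals.
UQCRC1 chr3:48609647-48609896 (-): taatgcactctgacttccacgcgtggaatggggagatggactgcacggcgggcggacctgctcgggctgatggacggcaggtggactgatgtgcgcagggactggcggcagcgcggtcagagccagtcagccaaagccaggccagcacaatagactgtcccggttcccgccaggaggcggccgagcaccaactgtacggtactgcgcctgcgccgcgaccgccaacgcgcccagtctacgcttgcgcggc
UQCRH chr1:46303448-46303697 (+): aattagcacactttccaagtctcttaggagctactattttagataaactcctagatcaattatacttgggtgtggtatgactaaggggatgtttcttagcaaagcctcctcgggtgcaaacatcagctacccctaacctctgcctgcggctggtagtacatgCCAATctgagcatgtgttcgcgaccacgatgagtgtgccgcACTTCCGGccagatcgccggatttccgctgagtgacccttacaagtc
UQCRQ chr5:132866392-132866641 (+): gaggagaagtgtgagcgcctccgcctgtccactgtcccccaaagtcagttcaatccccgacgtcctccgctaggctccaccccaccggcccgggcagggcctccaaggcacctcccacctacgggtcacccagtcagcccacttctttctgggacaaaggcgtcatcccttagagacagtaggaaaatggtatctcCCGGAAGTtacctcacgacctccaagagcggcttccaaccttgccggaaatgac
ATP5PD chr17:75046970-75047219 (-): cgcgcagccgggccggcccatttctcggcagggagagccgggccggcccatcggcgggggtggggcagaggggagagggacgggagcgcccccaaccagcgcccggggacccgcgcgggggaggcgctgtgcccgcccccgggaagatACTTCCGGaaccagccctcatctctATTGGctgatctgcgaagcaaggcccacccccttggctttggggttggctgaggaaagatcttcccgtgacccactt
NDUFS6 chr5:1801157-1801406 (+): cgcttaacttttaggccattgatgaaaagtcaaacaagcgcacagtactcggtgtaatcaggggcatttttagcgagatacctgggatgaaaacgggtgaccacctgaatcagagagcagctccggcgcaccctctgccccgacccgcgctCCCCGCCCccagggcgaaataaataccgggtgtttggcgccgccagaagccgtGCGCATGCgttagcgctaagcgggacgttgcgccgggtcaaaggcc
NDUFS7 chr19:1383657-1383906 (+): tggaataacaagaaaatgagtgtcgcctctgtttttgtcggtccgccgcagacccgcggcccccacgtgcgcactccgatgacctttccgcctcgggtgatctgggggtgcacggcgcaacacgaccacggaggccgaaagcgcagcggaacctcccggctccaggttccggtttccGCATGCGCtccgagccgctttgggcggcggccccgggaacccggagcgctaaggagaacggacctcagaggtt
COX6A1 chr12:120437863-120438112 (+): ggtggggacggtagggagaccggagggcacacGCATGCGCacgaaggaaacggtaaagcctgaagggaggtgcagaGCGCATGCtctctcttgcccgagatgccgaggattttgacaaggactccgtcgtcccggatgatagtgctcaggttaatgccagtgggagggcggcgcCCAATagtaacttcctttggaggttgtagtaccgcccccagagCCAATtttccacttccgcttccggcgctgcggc
ATP5F1C chr10:7787927-7788176 (+): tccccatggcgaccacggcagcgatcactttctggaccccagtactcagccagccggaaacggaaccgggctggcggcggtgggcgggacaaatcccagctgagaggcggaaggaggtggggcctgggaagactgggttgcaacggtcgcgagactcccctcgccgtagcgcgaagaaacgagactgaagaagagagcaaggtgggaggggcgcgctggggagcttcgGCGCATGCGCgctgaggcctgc
ATP5PF chr21:25735055-25735304 (-): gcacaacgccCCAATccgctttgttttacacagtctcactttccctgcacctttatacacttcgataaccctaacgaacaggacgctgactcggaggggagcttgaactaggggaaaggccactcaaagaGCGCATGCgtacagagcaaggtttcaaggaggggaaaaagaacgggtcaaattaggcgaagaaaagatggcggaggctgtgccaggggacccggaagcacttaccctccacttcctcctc
A match of letters is a description of the window and shows no binding. Starts here are those of the RefSeq table, which can differ from the GENCODE gene positions given below. The windows of UQCRC1, NDUFS7 and ATP5PF lie wholly inside those gene positions. The marked ETS letters of UQCRH and UQCRQ and the NRF1 letters of ATP5F1C also lie inside them. The ETS letters began 47 bases before the start in UQCRH, 54 in UQCRQ and 102 in ATP5PD. The NRF1 letters began 46 bases before it in NDUFS6, 73 in NDUFS7 and 120 in ATP5PF, in ATP5F1C they lay 22 and 20 bases before it as 1 palindrome, and in COX6A1 they stood at 218 and 174 bases.

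After filtering of low counts, 80 of the 87 genes could be tested. The other 7 were COX4I2, COX6A2, COX6B2, COX7A1, COX7B2 and ATP5MGL, with no count in any library, and COX8C, with 3 counts in 1 NC library and none elsewhere. In edgeR's quasi-likelihood test, 17 of the 80 were higher in SPNS2 cells (21.2%, against 12.1% of all 17853 tested genes), 1 was lower (1.25%, against 11.3%) and 62 were not called. The share called in either direction was 22.5%, next to 23.4% of all tested genes, so the subunit genes were called about as often as other genes. The split of 17 higher and 1 lower moved with the scaling: it was 14 and 6 with upper-quartile factors and 13 and 6 with library totals. The log2 fold change, SPNS2 over NC, was above 0 for 57 of the 80 genes, with a median of 0.20, a range from -0.90 to 0.94 and an SD of 0.35. Over all tested genes the median was -0.01, 49.4% were above 0 and the SD was 1.38. The groups did not overlap for 61 of the 80 genes, against 66% of all tested genes.

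The number of calls depended on single libraries. Without NC replicate 1 there were 6 called subunit genes, without NC replicate 2 there were 7, and without SPNS2 replicate 1 or SPNS2 replicate 2 there were 4 each. With the replicate number as a block there were 6, all higher. Between 54 and 62 of the tested genes were above 0 under the 15 alternatives run. A further 17 genes had an edgeR adjusted p between the threshold of 0.05 and 0.1, of which 11 were above 0 and 6 below.

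**Figure D1:**
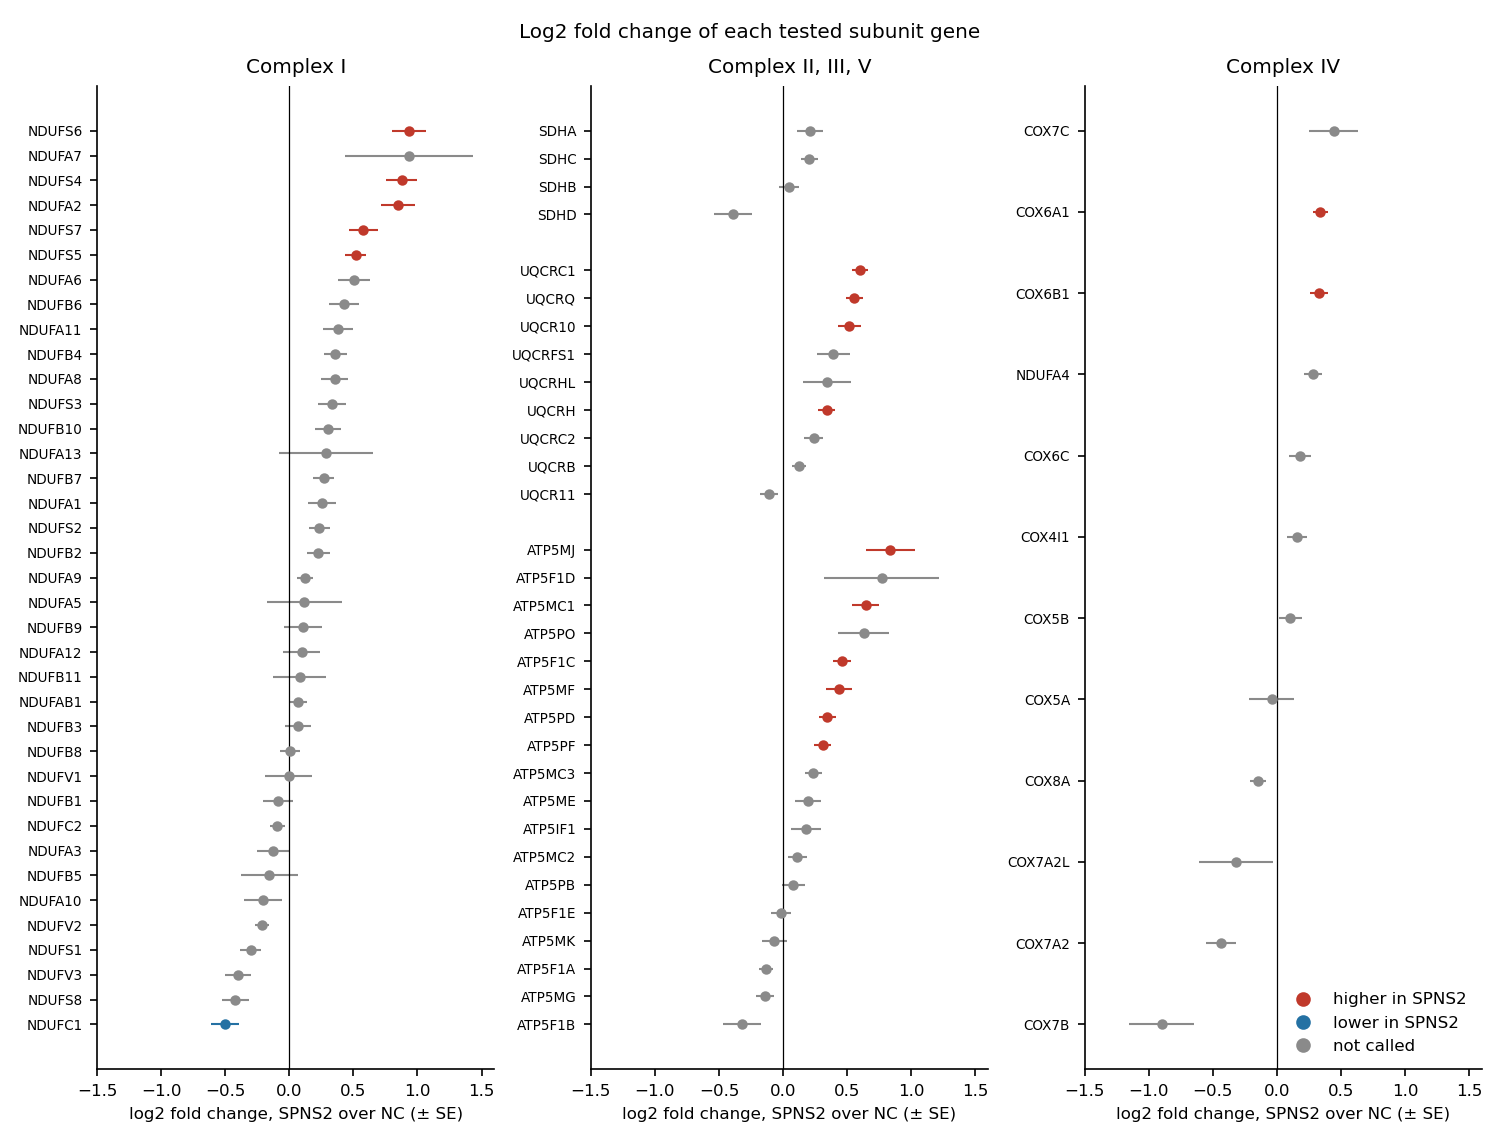
Log2 fold change (SPNS2 over NC) of the 80 tested subunit genes, ordered by size within each complex; points are fitted values and bars 1 standard error. The 17 genes called higher lie between 0.31 and 0.94, NDUFC1 at -0.50 is the 1 gene called lower, and most other genes lie near or right of 0.

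Libraries of a group were close for most of the genes, with a median ratio between the higher and the lower library of 1.08 in SPNS2 and 1.07 in NC. They stood more than 1.5-fold apart at 4 genes in SPNS2 (NDUFA5, COX7A2L, COX7B and ATP5F1D) and at 3 genes in NC (NDUFA7, NDUFA13 and NDUFB5). None of these 7 was called by edgeR, while DESeq2 and limma-voom called COX7B lower (adjusted p = 0.0039 and 0.0457).

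Complex I had 5 genes higher (13.5%, near the 12.1% of all tested genes) and 1 lower of 37 tested, with 26 above 0 and a median log2 fold change of 0.12. NDUFS6, NDUFS4 and NDUFA2, which had the largest rises among the called genes, are accessory subunits of the peripheral arm, the part that holds the NADH site and the iron-sulfur clusters. Of the 19 accessory genes outside the NDUFB series, 4 were higher (21.1%, against 12.1% of all tested genes). In that set 1 was lower (5.26%, against 11.3%), and the median was 0.26. Of the 7 core genes, which carry the redox centres and have bacterial counterparts, 1 was higher (14.3%, against 12.1% of all tested genes, median -0.00). None of the 11 NDUFB genes, accessory subunits of the membrane arm, was called by edgeR (4 higher and 0 lower at an unadjusted p under 0.05, 2 higher by DESeq2 and 1 by limma-voom), although 9 were above 0 (median 0.11). Without NC replicate 1 or NC replicate 2, 4 complex I genes were called higher, without SPNS2 replicate 2 there was 1, and without SPNS2 replicate 1 there was none by edgeR.

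NDUFS6 (ENSG00000145494, chromosome 5, 1801400 to 1816605 on hg38) encodes a zinc-binding accessory subunit needed late in assembly. Its level was 71.4 and 66.7 CPM in the SPNS2 libraries, against 32.1 and 40.00 CPM in the NC libraries. Both SPNS2 libraries lay well above both NC libraries, and the log2 fold change was 0.94 (edgeR adjusted p = 0.0146, SE 0.133), the highest of the 80 genes. NDUFS4 (ENSG00000164258, chromosome 5, 53560633 to 53683340) is an accessory subunit whose loss in humans causes Leigh syndrome. It had 41.9 and 44.4 CPM in SPNS2, against 25.5 and 21.6 CPM in NC, with no overlap, a log2 fold change of 0.88 (edgeR adjusted p = 0.014, SE 0.121). NDUFA2 (ENSG00000131495, chromosome 5, 140638740 to 140647785) has a thioredoxin-like fold. It had 38.1 and 42.4 CPM in SPNS2, against 20.3 and 24.3 CPM in NC, again apart, a log2 fold change of 0.85 (edgeR adjusted p = 0.0188, SE 0.134). NDUFA2 shares 70 exon bases with IK on the opposite strand, and how such reads were assigned is not given in the sources used here.

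NDUFS7 (ENSG00000115286, chromosome 19, 1383527 to 1395589) carries the terminal iron-sulfur cluster from which electrons reach coenzyme Q. It had 55.8 and 48.05 CPM in SPNS2, against 33.4 and 36.3 CPM in NC. It was the 1 core gene called higher, with a log2 fold change of 0.58 (edgeR adjusted p = 0.0312, SE 0.113). NDUFS5 (ENSG00000168653, chromosome 1, 39026318 to 39034636), a cysteine-rich accessory subunit on the intermembrane face, had 167 and 150 CPM in SPNS2, against 114 and 108 CPM in NC. The log2 fold change was 0.52 (edgeR adjusted p = 0.018, SE 0.080), with both SPNS2 libraries above both NC libraries. Per kb of coding sequence it was the most abundant of the complex I genes, at 499 CPM per kb in SPNS2 and 349 in NC. NDUFS3 was the least abundant in SPNS2 and NDUFA7 in NC, where NDUFA7 had 25.8 CPM per kb, against 49.1 in SPNS2.

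NDUFC1 (ENSG00000109390, chromosome 4, 139266880 to 139302551), a small membrane-arm subunit, was the single subunit gene called lower by edgeR. It had 17.61 and 16.96 CPM in SPNS2, against 25.2 and 23.8 CPM in NC, a log2 fold change of -0.50 (edgeR adjusted p = 0.0369, SE 0.106). All of the single-library omissions ended that call, with log2 fold changes between -0.54 and -0.46. NDUFS1, the largest subunit and the most abundant complex I gene that was not called, had 131 and 138 CPM in SPNS2, against 156 and 175 CPM in NC. Its groups were apart in the same direction as NDUFC1, at a log2 fold change of -0.30 (edgeR adjusted p = 0.0659, SE 0.082). The other core genes with values below 0 were NDUFS8 at -0.42, NDUFV2 at -0.21 and NDUFV1 at -0.00. None of them was called by edgeR, while DESeq2 and limma-voom called NDUFS8 lower (adjusted p = 0.0269 and 0.0489).

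**Figure D2:**
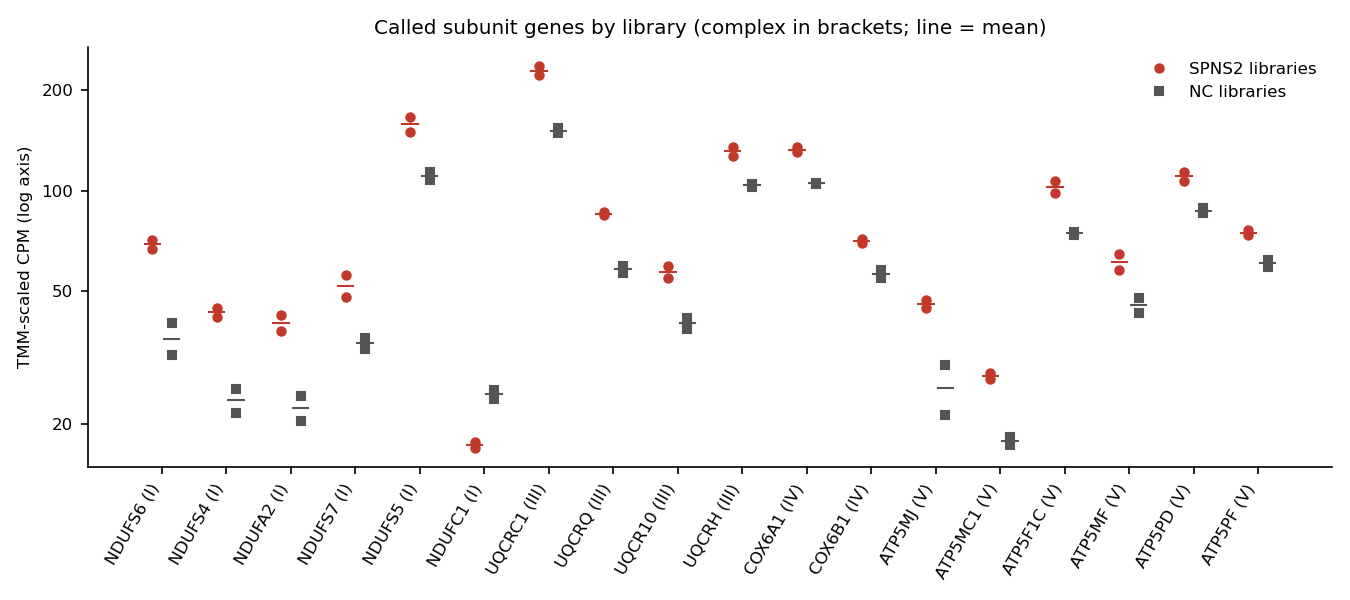
TMM-scaled CPM on a log axis for the 18 called subunit genes, with the complex in brackets; circles are the SPNS2 libraries, squares the NC libraries and short lines the group means (n = 2 each). The SPNS2 circles lie above the NC squares for 17 genes and below them for NDUFC1, with no overlap in any of the 18.

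Several complex I genes share exon bases with another gene row on their own strand, so that the split of reads between rows could move their values. NDUFA13 had 64.5 and 64.7 CPM in SPNS2, against 72.2 and 33.9 CPM in NC, while a gene row that overlaps it (ENSG00000258674) had 4 and 29 counts in SPNS2, against 167 and 1516 counts in NC. Added together they gave 64.7 and 65.5 CPM in SPNS2, against 77.5 and 79.0 CPM in NC, so the sum lay lower in SPNS2 although the log2 fold change of the NDUFA13 row alone was 0.28. NDUFA7 had 16.6 and 16.7 CPM in SPNS2, against 12.9 and 4.61 CPM in NC, and with its overlapping row (ENSG00000167774) 16.9 and 17.7 CPM in SPNS2, against 13.5 and 15.6 CPM in NC. That row had 8 and 35 counts in SPNS2, against 21 and 369 counts in NC, and the log2 fold change of the NDUFA7 row alone was 0.93 (edgeR adjusted p = 0.25, SE 0.50). NDUFB2 shares only 64 exon bases (1.4%) with ADCK2, a protein-coding gene that had 12.8 and 23.5 CPM in SPNS2, against 38.0 and 36.1 CPM in NC. Together they had 55.4 and 69.6 CPM in SPNS2, against 76.0 and 73.9 CPM in NC. That sum was lower in SPNS2 through the ADCK2 row, while the NDUFB2 row alone stood at 0.23. NDUFS3 and PTPMT1 together had 50.3 and 47.2 CPM in SPNS2, against 48.9 and 48.6 CPM in NC, with overlap, while the NDUFS3 row alone stood at 0.33.

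Complex II, succinate dehydrogenase, links the chain to the citric acid cycle, and none of its 4 genes was called by edgeR (1 higher and 1 lower at an unadjusted p under 0.05, and none by DESeq2 or limma-voom). SDHA, the flavoprotein, had 115 and 137 CPM in SPNS2, against 110 and 109 CPM in NC, a log2 fold change of 0.21 (edgeR adjusted p = 0.22, SE 0.103). SDHB, the iron-sulfur subunit, had 78.4 and 73.01 CPM in SPNS2, against 75.8 and 70.7 CPM in NC, which overlap. The membrane anchors stood on opposite sides of 0. SDHC had 77.8 and 74.4 CPM in SPNS2, against 65.2 and 66.9 CPM in NC (log2 fold change 0.20), and SDHD had 69.9 and 80.7 CPM in SPNS2, against 110 and 87.2 CPM in NC (log2 fold change -0.39, SE 0.146, edgeR adjusted p = 0.131). Per coding kb the levels ran from 63.4 in SPNS2 and 54.9 in NC for SDHA to 158 in SPNS2 and 207 in NC for SDHD.

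Complex III had the highest share of called genes in the fit as reported. Of 9 tested, 4 were higher (44.4%, against 12.1% of all tested genes). Of the 9, 8 were above 0, with a median log2 fold change of 0.34. The groups did not overlap for any of the 9 genes, against 66% of all tested genes without overlap. UQCRC1 (ENSG00000010256, chromosome 3, 48599002 to 48610976), a core protein on the matrix side related to the mitochondrial processing peptidase, had 222 and 237 CPM in SPNS2, against 149 and 154 CPM in NC. Its log2 fold change of 0.60 (SE 0.063) had the smallest edgeR adjusted p of the 80 genes, 0.00747. It was the 1 gene of the 18 that passed the threshold in all 15 alternatives, where its log2 fold change lay between 0.51 and 0.66. The other core protein, UQCRC2, had 129 and 141 CPM in SPNS2, against 117.7 and 111 CPM in NC, at 0.24 (edgeR adjusted p = 0.0896, SE 0.074).

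The small subunits UQCRQ, UQCR10 and UQCRH, which surround the catalytic core, also rose. UQCRQ (ENSG00000164405, chromosome 5, 132866560 to 132868031) had 84.6 and 86.1 CPM in SPNS2, against 56.5 and 59.6 CPM in NC, a log2 fold change of 0.56 (edgeR adjusted p = 0.0104, SE 0.068). UQCR10 (ENSG00000184076, chromosome 22, 29767369 to 29770413) had 59.6 and 54.8 CPM in SPNS2, against 38.5 and 41.5 CPM in NC, a log2 fold change of 0.52 (edgeR adjusted p = 0.0244, SE 0.091). UQCRH (ENSG00000173660, chromosome 1, 46303631 to 46316776), the hinge protein at the cytochrome c docking site, had 136 and 127 CPM in SPNS2, against 103 and 105 CPM in NC. Its log2 fold change was 0.34 (edgeR adjusted p = 0.0301, SE 0.066), and in all 3 genes the SPNS2 libraries lay above the NC libraries. Without NC replicate 1 or SPNS2 replicate 2 there was 1 called gene in complex III, and without NC replicate 2 or SPNS2 replicate 1 there were 2.

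Of the complex III genes not called, UQCRFS1, the Rieske iron-sulfur protein, had 78.0 and 71.0 CPM in SPNS2, against 50.6 and 62.9 CPM in NC (log2 fold change 0.39, SE 0.131, edgeR adjusted p = 0.103). UQCRB, the most abundant of them, had 141 and 140 CPM in SPNS2, against 130 and 128 CPM in NC, at 0.12 (edgeR adjusted p = 0.19, SE 0.056). UQCR11 was the 1 gene of the complex below 0, at -0.11, and had the highest level per coding kb, 522 in SPNS2 and 563 in NC. UQCRHL, a close copy of UQCRH, had 4.65 and 5.22 CPM in SPNS2, against 3.90 and 3.89 CPM in NC. It held 3.31% and 3.95% of the summed UQCRH and UQCRHL level per coding kb in SPNS2, against 3.65% and 3.58% in NC, which overlap, and its reads may in part come from UQCRH. CYC1, the cytochrome c1 of the complex, had 115 and 83.8 CPM in SPNS2, against 75.3 and 110 CPM in NC, with overlap. Cytochrome c itself (CYCS) had 198 and 202 CPM in SPNS2, against 199 and 195 CPM in NC, a log2 fold change of 0.02 (edgeR adjusted p = 0.78, SE 0.054).

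In complex IV, 2 of 12 tested genes were higher (16.7%, against 12.1% of all tested genes), both for subunit 6. None was lower by edgeR (2 lower at an unadjusted p under 0.05, 2 by DESeq2 and 1 by limma-voom). Of the 12, 7 were above 0, with a median of 0.13. COX6A1 (ENSG00000111775, chromosome 12, 120438090 to 120440742), the form of subunit 6A outside muscle, had 135 and 131 CPM in SPNS2, against 105 and 105 CPM in NC, a log2 fold change of 0.34 (edgeR adjusted p = 0.0228, SE 0.058). COX6B1 (ENSG00000126267, chromosome 19, 35648223 to 35658861), which bridges the monomers of the dimer, had 69.8 and 71.6 CPM in SPNS2, against 58.0 and 54.7 CPM in NC, at 0.33 (edgeR adjusted p = 0.0401, SE 0.072). Both rises were small and clear of the spread between libraries. Neither call held when any 1 of the 4 libraries was left out, and no complex IV gene was called higher by edgeR in those fits.

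The 4 tested subunit 7 genes had a median log2 fold change of -0.38, and none was called by edgeR (2 lower at an unadjusted p under 0.05, 2 by DESeq2 and 1 by limma-voom). COX7B had 30.1 and 18.5 CPM in SPNS2, against 44.8 and 45.8 CPM in NC, which gave the lowest log2 fold change of the 80 genes, -0.90 (edgeR adjusted p = 0.0693, SE 0.25). The SPNS2 libraries were 1.63-fold apart, though both lay under both NC libraries. COX7A2 had 56.7 and 48.5 CPM in SPNS2, against 67.0 and 75.4 CPM in NC, at -0.44 (edgeR adjusted p = 0.0613, SE 0.115). COX7A2L, a relative of COX7A2 that joins complexes III and IV in supercomplexes, had 40.7 and 23.5 CPM in SPNS2, against 36.7 and 43.5 CPM in NC. Those groups overlap, and the log2 fold change of -0.32 (edgeR adjusted p = 0.475) became 0.02 without SPNS2 replicate 2. COX7C, with 88.1 and 71.9 CPM in SPNS2 and 49.8 and 67.9 CPM in NC, stood on the other side at 0.44 (edgeR adjusted p = 0.171, SE 0.189).

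Tissue-restricted isoforms of complex IV had few or no counts. COX6A2 and COX7A1, known from heart and skeletal muscle, COX4I2, known from lung, and COX6B2 and COX7B2, known from testis, had 0 counts in all 4 libraries. COX8C, also known from testis, had 3 counts in NC replicate 2 and 0 elsewhere. A count of 0 allows up to 0.0975 and 0.0899 CPM in the SPNS2 libraries and up to 0.0936 and 0.0892 CPM in the NC libraries (3 counts, counting error only). None of 4 muscle markers and none of 4 testis markers reached a mean of 1 CPM over the 4 libraries. The general forms were all present. COX4I1 had 100 and 89.7 CPM in SPNS2, against 84.4 and 86.0 CPM in NC (log2 fold change 0.15, edgeR adjusted p = 0.233). COX8A had 116 and 115 CPM in SPNS2, against 124.7 and 131 CPM in NC (-0.15, edgeR adjusted p = 0.165), and was the most abundant gene of the complex per coding kb, at 559 in SPNS2 and 618 in NC. COX7A2L was the least abundant, at 93.9 in SPNS2 and 117 in NC.

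NDUFA4 and its paralog stood on opposite sides of 0. NDUFA4 had 110 and 108 CPM in SPNS2, against 93.4 and 86.7 CPM in NC, with groups apart and a log2 fold change of 0.28 that just missed the threshold (edgeR adjusted p = 0.051, SE 0.068). Limma-voom and the robust fit called it, with adjusted p of 0.0483 and 0.0432. NDUFA4L2, a hypoxia-inducible paralog outside the 87 genes that is known to lower complex I activity, fell to 1.85 and 1.23 CPM in SPNS2 (57 and 41 counts), against 7.80 and 8.62 CPM in NC (250 and 290 counts). The log2 fold change was -2.41 (edgeR adjusted p = 0.00898, SE 0.274), a 5.33-fold lower level in SPNS2.

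Complex V had 6 genes higher by edgeR of 18 tested (33.3%, against 12.1% of all tested genes). None was lower by edgeR (none lower at an unadjusted p under 0.05, by DESeq2 or by limma-voom). Of the 18, 13 were above 0, with a median of 0.21. Of the 5 F1 head genes of the complex 1 was higher (20%, against 12.1% of all tested genes), with a median of -0.02 for the 5. ATP5F1C (ENSG00000165629, chromosome 10, 7788129 to 7807815), the rotating gamma subunit, rose with 107 and 98.5 CPM in SPNS2, against 73.8 and 75.4 CPM in NC, a log2 fold change of 0.46 (edgeR adjusted p = 0.0184, SE 0.072). ATP5F1B, the catalytic beta subunit and the most abundant of the 87 genes in CPM, had 402 and 538 CPM in SPNS2, against 594 and 582 CPM in NC. Both SPNS2 libraries lay below both NC libraries but far from each other, and the log2 fold change of -0.32 (SE 0.148) was not called (edgeR adjusted p = 0.193). Without SPNS2 replicate 2 it was -0.55 (edgeR adjusted p = 0.0238). ATP5F1A, the alpha subunit, had 388 and 405 CPM in SPNS2, against 444 and 427 CPM in NC, at -0.14 (edgeR adjusted p = 0.146, SE 0.054). ATP5F1D rested on 1 library, with 16.5 and 40.8 CPM in SPNS2, against 15.9 and 17.7 CPM in NC (edgeR adjusted p = 0.285). ATP5F1E had the highest level per coding kb of the complex, 1337 in SPNS2 and 1352 in NC, on the shortest coding sequence, and ATP5F1D the lowest, 56.8 in SPNS2 and 33.3 in NC.

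All 4 genes of the peripheral stalk, which holds the head against rotation, were above 0 (median 0.33). Of these 4, 2 were called, both higher (50%, against 12.1% of all tested genes). ATP5PD (ENSG00000167863, chromosome 17, 75038863 to 75046985), subunit d, had 114 and 107 CPM in SPNS2, against 88.5 and 85.7 CPM in NC, a log2 fold change of 0.34 (edgeR adjusted p = 0.0305, SE 0.067). ATP5PF (ENSG00000154723, chromosome 21, 25716503 to 25735673), coupling factor 6, had 76.2 and 73.7 CPM in SPNS2, against 59.1 and 62.0 CPM in NC, at 0.31 (edgeR adjusted p = 0.0419, SE 0.069). Both pairs of SPNS2 libraries lay above the NC libraries. ATP5PF shares 413 exon bases on the opposite strand with GABPA, the gene of an ETS factor, and ATP5PD shares 340 with KCTD2. ATP5PO, known as OSCP, had 105 and 117.9 CPM in SPNS2, against 85.8 and 58.5 CPM in NC, and its log2 fold change of 0.63 was not called (edgeR adjusted p = 0.0944, SE 0.201), with NC libraries 1.47-fold apart.

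Among the small membrane subunits, ATP5MJ (ENSG00000156411, chromosome 14, 103912288 to 103928269), a proteolipid at the base of the enzyme, had 46.9 and 44.5 CPM in SPNS2, against 21.2 and 30.0 CPM in NC, a log2 fold change of 0.84 (edgeR adjusted p = 0.0426, SE 0.189). ATP5MF (ENSG00000241468, chromosome 7, 99448475 to 99466331), subunit f, had 57.7 and 64.8 CPM in SPNS2, against 47.5 and 43.1 CPM in NC, at 0.43 (edgeR adjusted p = 0.0456, SE 0.101). The groups were apart in both, and each call was lost under several alternatives. ATP5MF shares 53 exon bases (2.3%) with PTCD1 on its own strand. Added together they had 80.1 and 89.9 CPM in SPNS2, against 73.6 and 70.4 CPM in NC, still apart. ATP5IF1, the inhibitor that binds the F1 head when the membrane potential is lost, had 57.8 and 51.1 CPM in SPNS2, against 44.6 and 51.7 CPM in NC, with overlap (log2 fold change 0.18, edgeR adjusted p = 0.339). When 1 library was left out, complex V had 1 gene called higher in each of the 4 fits.

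Subunit c, whose ring turns in the membrane, is made as the same mature protein from ATP5MC1, ATP5MC2 and ATP5MC3, which differ in their targeting sequences. ATP5MC1 (ENSG00000159199, chromosome 17, 48892765 to 48895871) had 28.4 and 27.2 CPM in SPNS2, against 18.3 and 17.3 CPM in NC, a log2 fold change of 0.64 (edgeR adjusted p = 0.02, SE 0.104), a 1.56-fold rise. ATP5MC2 had 78.7 and 78.9 CPM in SPNS2, against 69.5 and 76.4 CPM in NC (0.11, SE 0.076, edgeR adjusted p = 0.359), and ATP5MC3 had 88.1 and 83.1 CPM in SPNS2, against 73.3 and 72.3 CPM in NC (0.23, SE 0.067, edgeR adjusted p = 0.0734). All 3 had both SPNS2 libraries above both NC libraries. Of the level summed over the 3 genes per coding kb, ATP5MC1 gave 15.04% and 14.9% in SPNS2, against 11.8% and 10.8% in NC. ATP5MC2 gave 40.2% and 41.6% in SPNS2, against 43.1% and 46.0% in NC, and ATP5MC3 gave 44.7% and 43.5% in SPNS2, against 45.1% and 43.2% in NC. ATP5MC1 thus remained the smallest source of subunit c transcript in both groups, and the difference in its share was not tested beyond the absence of overlap.

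**Figure D3:**
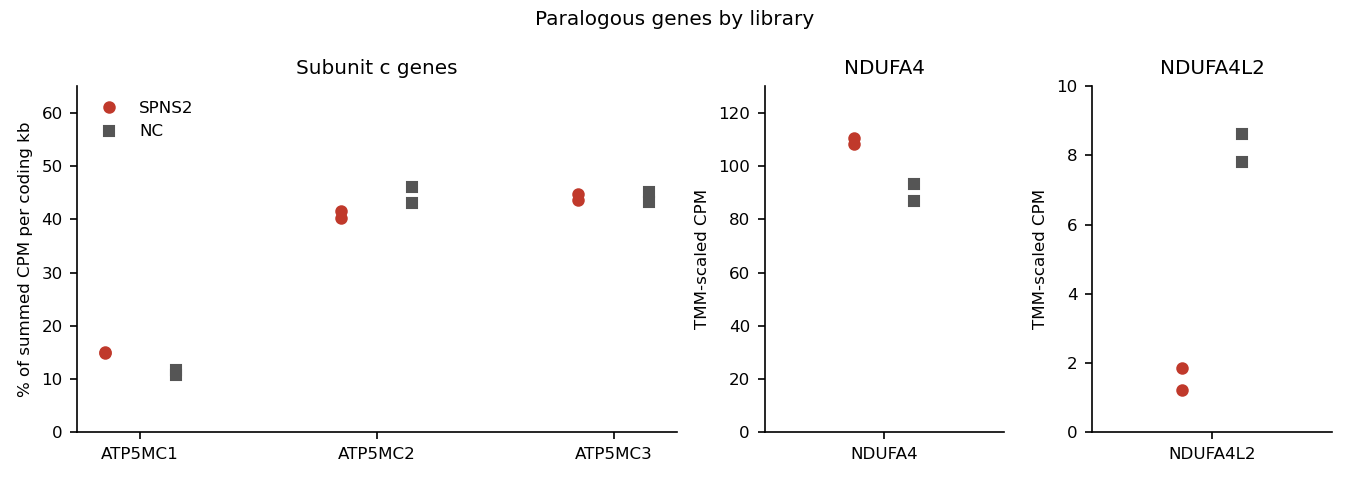
Left, percent of the summed CPM per coding kb of the 3 subunit c genes that came from each gene; right, TMM-scaled CPM of NDUFA4 and of its paralog NDUFA4L2; circles are SPNS2 libraries and squares NC libraries. ATP5MC1 has the smallest share and lies higher in SPNS2, ATP5MC3 overlaps between the groups, and NDUFA4L2 lies at 1.85 and 1.23 CPM in SPNS2 against 7.80 and 8.62 CPM in NC.

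Summed over the genes of a complex, the level separated the groups for complexes I and III on every scale used. Complex III had 947 and 946 summed CPM in SPNS2, against 745 and 760 in NC, a ratio of 1.26, and 2486 and 2400 summed CPM per coding kb in SPNS2, against 2035 and 2070 in NC (ratio 1.19). Complex I had 2103 and 2063 summed CPM in SPNS2, against 1899 and 1867 in NC, a ratio of 1.11 (1.15 per coding kb). Scaled by library totals in place of TMM, the ratios of summed CPM were 1.21 for complex III and 1.06 for complex I, still with no overlap.

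The summed CPM of complexes II and IV overlapped between the groups. Complex II had 341 and 366 summed CPM in SPNS2, against 361 and 334 in NC, a ratio of 1.02 that was 0.978 on library totals. Per coding kb on library totals its sums did not overlap, at 443 and 461 in SPNS2 against 514 and 463 in NC (ratio 0.926). Complex IV had 980 and 895 in SPNS2, against 859 and 924 in NC (ratio 1.05). The sum of complex V depended on its largest genes: with all genes it was 2122 and 2285 in SPNS2, against 2198 and 2144 in NC, a ratio of 1.01 that was 0.976 on library totals. Without ATP5F1A and ATP5F1B it was 1332 and 1341 in SPNS2, against 1160 and 1135 in NC, with no overlap and a ratio of 1.16. Per coding kb, where long genes weigh less, the complex V sum lay at 4754 and 4713 in SPNS2, against 4423 and 4340 in NC (ratio 1.08).

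**Figure D4:**
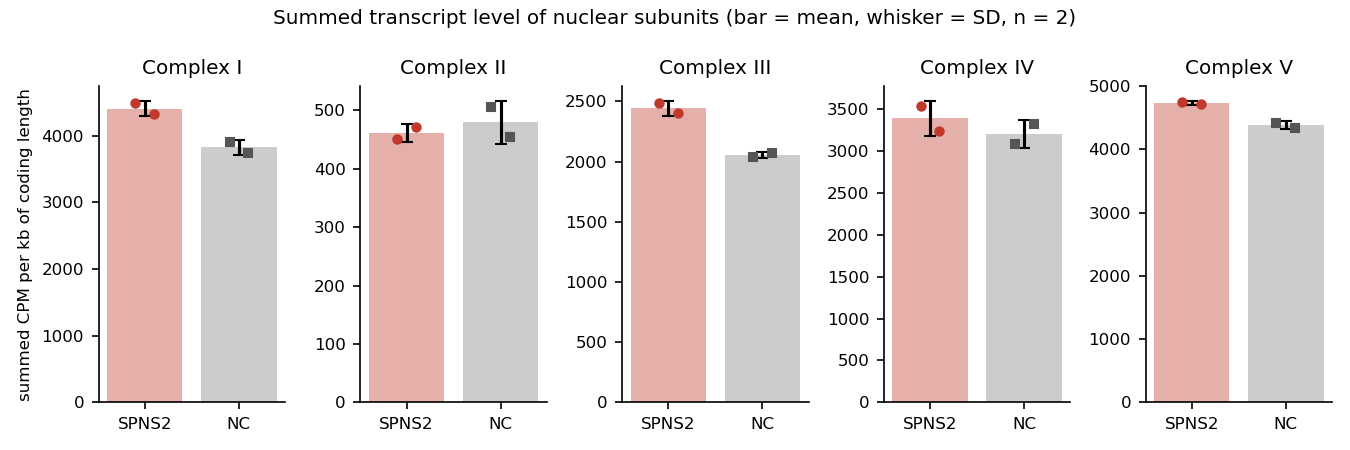
Summed CPM per kb of coding sequence for the nuclear genes of each complex; bars are means, whiskers SD (n = 2 each) and points the libraries, on separate axes that start at 0. The SPNS2 libraries lie above the NC libraries for complexes I, III and V and overlap with them for complexes II and IV.

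The chromosome arm of a gene moved with its fold change. Over all tested genes the median log2 fold change was 0.43 on 5q and 0.30 on 5p, and -0.39 on 11q and -0.32 on 4q. All 6 subunit genes on chromosome 5 (NDUFS6, NDUFS4, NDUFA2, SDHA, UQCRQ and COX7C) were above 0, with a median of 0.70. Of these 6, 4 were higher (66.7%, against 12.1% of all tested genes). Among all tested genes of these arms, 239 of 701 on 5q and 46 of 150 on 5p were higher. Thus 4 of the 17 higher genes and the 3 highest log2 fold changes among called complex I genes came from this chromosome. All 6 on 11q (NDUFS8, SDHD, COX8A, ATP5MG, NDUFC2 and NDUFV1) were below 0 (median -0.14). None of them was called by edgeR (2 lower at an unadjusted p under 0.05, 1 by DESeq2 and 1 by limma-voom). NDUFC1, the gene called lower by edgeR, lies on 4q. Of the 68 tested genes elsewhere, 13 were higher (19.1%, against 12.1% of all tested genes) and 1 was lower (1.47%, against 11.3%). Of these 68, 51 were above 0, with a median of 0.20. Copy number was not measured, and its part in these values was not tested.

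With the median of each arm removed, 13 subunit genes were called, 12 higher and 1 lower, of which 8 were among the 18 called without it. The 12 higher were 5 of 37 in complex I, 2 of 9 in complex III, 1 of 12 in complex IV and 4 of 18 in complex V. Complex III thus no longer had the highest share alone. Of the chromosome 5 genes NDUFS6 kept its call (edgeR adjusted p = 0.041), while NDUFS4 (0.0735), NDUFA2 (0.103) and UQCRQ (0.274) lost theirs, all p adjusted. NDUFC1 lost its call at an adjusted p of 0.302, and 9 genes changed sign. Those now above 0 were NDUFC2 (0.30), NDUFV1 (0.39), SDHD (0.00), COX5A (0.17), COX8A (0.25), ATP5MK (0.17) and ATP5MG (0.25), and those now below 0 were SDHA (-0.10) and NDUFB11 (-0.04). The genes newly called higher were NDUFA9, NDUFC2, ATP5MC3 and ATP5ME, and NDUFV3 was newly called lower. The higher genes that kept their calls were NDUFS6, NDUFS7, NDUFS5, UQCRC1, UQCRH, COX6A1, ATP5MJ and ATP5MC1. The median of the 80 genes was 0.22 after the removal, and 62 lay above the median of their own arm, among them 5 of the 6 on chromosome 5 and 5 of the 6 on 11q.

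**Figure D5:**
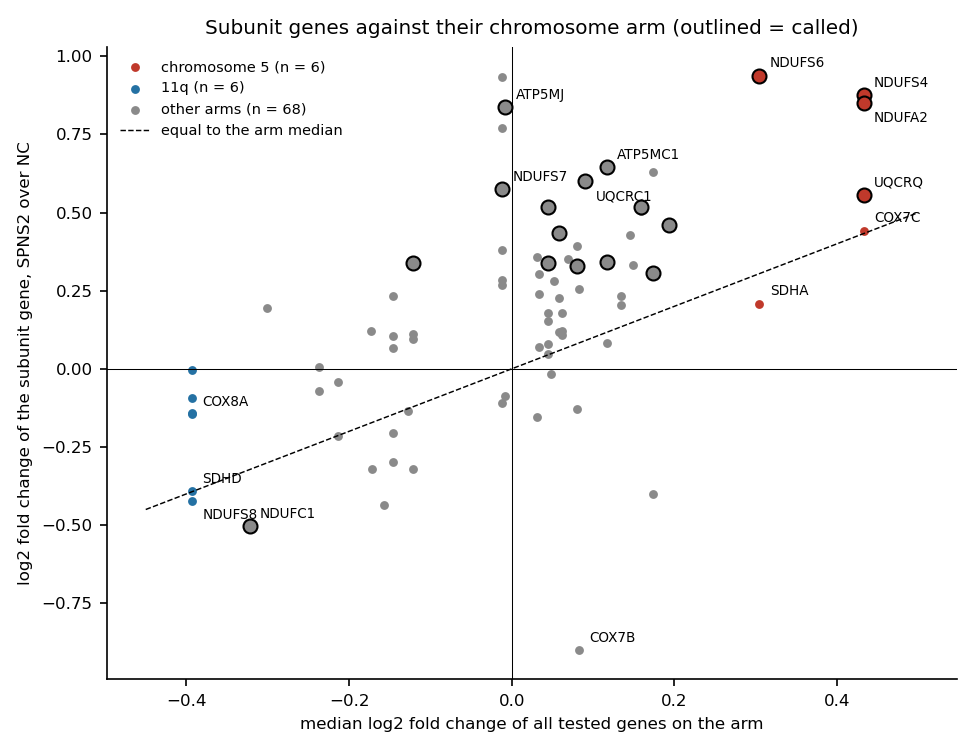
Log2 fold change of each tested subunit gene against the median log2 fold change of all tested genes on its chromosome arm; large outlined points are called genes, colours mark chromosome 5 and 11q, and the dashed line is equality. Genes on chromosome 5 lie high on both axes, genes on 11q lie low, and 62 of the 80 points lie above the line.

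Most of the mitochondrially encoded subunits, partners of these proteins in the same complexes, lay on the other side. Of the 13 genes, 7 were lower in SPNS2 cells (53.8%, against 11.3% of all tested genes). The median of the 13 was -0.18, with a range from -0.43 to 0.09. Of the 13, 9 were below 0 and 4 above. Those above 0 were MT-CYB, MT-ND2, MT-ATP6 and MT-ATP8, at 0.03 to 0.09. None of the 13 was higher by edgeR (none at an unadjusted p under 0.05, by DESeq2 or by limma-voom). They held 3.03% and 3.06% of all counts in SPNS2, against 3.79% and 3.70% in NC. MT-CO1, a catalytic subunit of complex IV, fell to 8971 and 9203 CPM in SPNS2, against 12284 and 11697 CPM in NC (log2 fold change -0.40, SE 0.035, edgeR adjusted p = 0.00491). MT-CO3, MT-ND1, MT-ND5 and 3 further genes (MT-CO2, MT-ND4 and MT-ND4L) also fell, with log2 fold changes from -0.43 to -0.17. MT-CYB, the mitochondrial subunit of complex III, was the highest at 0.09, with 2721 and 2685 CPM in SPNS2, against 2582 and 2494 CPM in NC (edgeR adjusted p = 0.147). DESeq2 called 4 of the 13 lower, and without 1 library edgeR called 2 (NC replicate 1), 3 (NC replicate 2), 4 (SPNS2 replicate 1) or 5 (SPNS2 replicate 2).

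Factors that build the complexes showed no common direction. Of 18 complex I assembly genes 1 was higher (5.56%, against 12.1% of all tested genes) and 1 lower (5.56%, against 11.3%), with a median of 0.05. NDUFAF2, on 5q, had 34.3 and 30.2 CPM in SPNS2, against 20.6 and 23.4 CPM in NC. TMEM126B, on 11q, fell to 47.3 and 47.4 CPM in SPNS2, against 65.4 and 61.7 CPM in NC. Neither was called in any of the 4 fits without 1 library, with the replicate block, or with arm medians removed (adjusted p = 0.562 and 0.814). Of 25 complex IV assembly genes 4 were lower (16%, against 11.3% of all tested genes) and none was higher by edgeR (4 higher at an unadjusted p under 0.05, 2 by DESeq2 and 1 by limma-voom). The 4 lower genes included COA4 (log2 fold change -0.68) and COX15, which makes heme A (-0.67). The others were COX20, a chaperone of the COX2 subunit (-0.70), and COX18, which inserts that subunit in the membrane (-0.87). Their edgeR adjusted p lay between 0.00894 and 0.0126. With arm medians removed COA4, on 11q, lost its call (edgeR adjusted p = 0.0717), while COX15, COX20 and COX18 kept theirs. Without 1 library, 1 (either NC replicate) or 3 (either SPNS2 replicate) of the list were lower. SDHAF3, an assembly factor of complex II, fell to 1.62 and 1.77 CPM in SPNS2, against 6.71 and 5.71 CPM in NC (-1.87, SE 0.215, edgeR adjusted p = 0.00932), a call lost without NC replicate 1. None of 9 complex III assembly genes (median -0.13), 7 complex V assembly genes (-0.10) or 11 coenzyme Q synthesis genes (0.03) was called by edgeR (1 complex III assembly gene was higher without NC replicate 1, and 1 coenzyme Q gene with the robust fit or a minimum mean of 1 CPM). At an unadjusted p under 0.05 these lists had 1 lower, 1 lower, and 1 higher and 1 lower gene, and DESeq2 and limma-voom each called 1 gene, higher, in the coenzyme Q list.

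Of 10 supercomplex and cristae genes 2 were higher (20%, against 12.1% of all tested genes) and 1 lower (10%, against 11.3%), with a median of 0.30. HIGD2A, a supercomplex factor on 5q, had 53.2 and 46.4 CPM in SPNS2, against 32.7 and 30.7 CPM in NC, CHCHD3, a subunit of the cristae-organising MICOS complex, rose by 0.49 and APOOL, of the same complex, fell by 0.82 on the log2 scale. No gene of that list was called without NC replicate 1, and none was higher by edgeR without NC replicate 2 or SPNS2 replicate 1. With arm medians removed HIGD2A lost its call (adjusted p = 0.232). Among 5 electron carriers 1 was called, ETFDH, which was lower (20%, against 11.3% of all tested genes). It feeds electrons from fatty acid oxidation to coenzyme Q and fell by 0.75 on the log2 scale. With arm medians removed ETFA was newly called higher (edgeR adjusted p = 0.0265). No carrier was called lower without NC replicate 1, NC replicate 2 or SPNS2 replicate 2, with the replicate block, or with arm medians removed, where ETFDH had an adjusted p of 0.104.

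Of 18 regulators of respiratory genes 2 were higher (11.1%, against 12.1% of all tested genes) and 2 lower (11.1%, against 11.3%), with a median of 0.20. These shares were near those of all tested genes. The PGC-1 coactivators moved in opposite directions. PPARGC1B, on 5q, had 1.62 and 2.31 CPM in SPNS2, against 0.218 and 0.119 CPM in NC, a log2 fold change of 3.52 on low counts (edgeR adjusted p = 0.0147, SE 0.50). PPARGC1A fell to 4.55 and 6.05 CPM in SPNS2, against 11.4 and 11.9 CPM in NC (-1.13, SE 0.20, edgeR adjusted p = 0.0246). The mitochondrial transcription factor gene TFB2M rose by 0.46, and ESRRA, on 11q, fell by 0.47 on the log2 scale. Without NC replicate 1, and with the replicate block, none of the 18 was called by edgeR. Without NC replicate 2 there was 1 higher, without SPNS2 replicate 1 there were 2 higher, and without SPNS2 replicate 2 there was 1 lower. With arm medians removed PPARGC1A, ESRRA and TFB2M lost their calls (edgeR adjusted p = 0.0562, 0.569 and 0.104). In that fit PPARGC1B kept its call (edgeR adjusted p = 0.0227), and TFAM was newly called higher (edgeR adjusted p = 0.0327). Of 18 citric acid cycle and pyruvate dehydrogenase genes 5 were higher (27.8%, against 12.1% of all tested genes). These were MDH2, FH, IDH3B, SUCLG1 and IDH3G, by 0.33 to 0.53. DLST and OGDH were lower (-0.44 and -0.33), a share of 11.1%, against 11.3% of all tested genes. The median of the list was 0.12. Without 1 library at most 1 gene of that list was called, in the fit without SPNS2 replicate 1.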

How the data were processed

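RNA of 4 libraries (2 SPNS2, 2 NC) was analysed from the raw counts per Ensembl gene deposited by the authors, whole numbers that were not normalized. The submitters' processing notes name Trim Galore 0.6.9, HISAT2 2.2.1, featureCounts and hg38. The annotation release, strand setting and handling of reads with several matches have no statement there, and 1 row without counts was left out.

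Genes were kept by filterByExpr with a minimum count of 10 and a minimum total of 15 (17853 genes). TMM-scaled counts entered edgeR's quasi-likelihood test (two-sided, edgeR 4.0.16, R 4.3.3), with group as the only term. P-values were adjusted by Benjamini-Hochberg over all tested genes and called under 0.05. The SE is the log2 fold change over the square root of F. The chi-square per degree of freedom between libraries of a group was 33.7 in SPNS2 and 27.5 in NC. All 87 members matched GENCODE release 29 (positions, 1-based, and coding lengths of principal transcripts). Levels per coding kb divide CPM by that length, although reads from untranslated parts are counted too. Pseudogene rows (104) were left out. Arms were divided at approximate centromere positions.

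Alternatives were DESeq2 1.42.0, limma-voom (limma 3.58.1), a robust fit, upper-quartile and RLE factors, no factors, no filter, at least 1 CPM on average, each library left out in turn, a replicate block, arm medians removed and pseudogene counts added. With 1 library left out, the lone library of its group is assumed to vary like the other group. The gene test was tested on simulated data. Members, lists and the genes named (every called gene, isoform families, extremes of level, up to 4 called genes per further list) were chosen with earlier results of these data known. NDUFA13, NDUFA7, NDUFB2, NDUFS3, the genes that changed sign, ATP5F1D, ATP5PO, COX7B, COX7C, ATP5IF1, UQCRFS1, UQCRC2, UQCR11, the other core and complex II genes, APOOL, CHCHD3 and MT-CYB were named after their values were seen.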

Additional observations from a re-analysis of the deposited data

How the results depend on the processing

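Of the 18 called subunit genes none changed direction in the 15 alternatives, and 1, UQCRC1, was called in all of them. The number called, 18 as reported, was 6 with the replicate block and 4 to 7 with 1 library left out. The number higher, 17 as reported, was 6 with the block and 3 to 7 with 1 library left out. The number lower, 1 as reported, was 4 with DESeq2, limma-voom, the robust fit or a minimum mean of 1 CPM, 6 with upper-quartile factors or library totals, 0 with no low-count filter or the block, and 0 to 1 with 1 library left out. Over all tested genes, 4171 were called as reported, 1976 with the block and 1512 to 2039 with 1 library left out. Deviations of same-numbered libraries from their group means had a correlation of r = -0.05. With 2 libraries per group this is a single value, and it cannot show whether they share a culture or day. Signs reversed for COX7A2L without SPNS2 replicate 2 (0.021, with a range of -0.76 to 0.021 over the fits without 1 library) and, with arm medians removed, for 9 of the 80, among them COX8A (0.25), SDHA (-0.10) and NDUFC2 (0.30), of which NDUFC2 was then called higher (edgeR adjusted p = 0.0379). The other alternatives changed the sign of 0 to 7 of the 80 genes, or of 8 without SPNS2 replicate 2. The cause of these changes was not tested, beyond the fewer samples or degrees of freedom in the fits with a block or without a library. DESeq2 called 25 subunit genes, limma-voom and the robust fit 24 each, all 3 with the 18 reported among them. The median of the 80 genes lay between 0.14 with library totals, where the median of all genes was -0.06, and 0.22.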
